A study of Mus musculus with 6 samples.

Results

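The genes described here are 49 transcription factor genes of the homeobox, T-box and forkhead families in immortalized mouse pancreatic fibroblasts. They were chosen by a rule on gene symbols, set with earlier results of these data known. The rule takes the genes listed in the count table under a Hoxa, Hoxb, Hoxc, Hoxd, Meis, Pbx, Irx or Tbx symbol, under a symbol of the sine oculis-related group (such as Six4 and Six5), or under a forkhead symbol of the Foxc, Foxd, Foxf, Foxp or Foxq groups. They make up 49 of the 14831 genes listed, 21 of them Hox genes, and all 49 had enough counts to be tested. A further 7 genes of the same families (Hoxa13, Hoxc8, Hoxc9, Hoxc10, Foxp2, Six3 and Tbx20) have an Ensembl identifier but an empty symbol cell. They were recognised from the annotation after the data had been seen, are described beside the 49 and are left out of their counts. The annotation names 84 genes under these symbols, of which 56 have a row, and the other 28 were not analysed here.

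These families are known for recording position in the body. Hox genes lie in 4 clusters, and the order of the genes along a cluster follows the order of their expression along the head-to-tail axis, a memory that fibroblasts keep in culture. Meis and Pbx proteins are homeodomain cofactors that bind DNA together with Hox proteins. T-box, sine oculis-related and Irx factors pattern organ rudiments and limbs, and Foxf1 and Foxf2 are forkhead factors of the mesenchyme around the gut, where their genes respond to Hedgehog signals.

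The study asked what the Hedgehog-responsive factors GLI2 and GLI3 do in pancreatic fibroblasts, and its RNAseq compares 3 WT-labelled libraries with 3 labelled as a Gli2 and Gli3 knock-out (labelled KO here). Per the study's methods such lines were derived from the pancreas of adult mice with floxed Gli alleles, immortalized, and then infected with a GFP adenovirus plus a dsRed lentivirus (control) or with GFP and Cre adenoviruses driven by the CMV promoter (KO), sorted by flow cytometry and screened for recombination. The strain is labelled as mixed. Each library came from its own confluent well, in DMEM with calf serum and antibiotics in both groups, and the labels do not say whether a group holds 1 line or several, so p-values measure only the spread between wells, which may be technical. Libraries held between 31728420 and 33905521 counts in the group labelled WT and between 32781730 and 41035931 in the group labelled KO, and 3 counts correspond to 0.0720 to 0.0957 CPM (counts scaled to library size). Such floors and the counting intervals given for ratios cover counting error only.

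The targeted genes were read first. Gli2 had 809, 944 and 868 counts in the WT-labelled libraries and 1932, 2316 and 1926 in the KO-labelled ones, a log2 difference of 1.05 ± 0.04 (SE, adjusted p = 8.01e-10, edgeR quasi-likelihood test, Benjamini-Hochberg adjusted). Gli3 had 392, 416 and 398 counts against 1434, 1637 and 1404, a log2 difference of 1.71 ± 0.05 (SE, adjusted p = 2.10e-11, same test). Both genes were higher in every KO-labelled library, against the genotype that the labels name. Counts over a whole gene do not show which exons the reads came from, so they do not read the deletion of floxed exons itself. For such lines the study reports that loss of Gli2 and Gli3 was checked by qPCR and western blot. It also reports that the knock-out lines did not respond to Hedgehog stimulation but kept a baseline of Gli1 expression. The Hedgehog target genes Gli1, Ptch1 and Hhip were lower in every KO-labelled library. Gli1 had 40, 50 and 37 counts against 4, 10 and 13, a log2 difference of -2.40 (adjusted p = 2.29e-05, same test). Ptch1, which encodes the Hedgehog receptor, had 7046, 7912 and 7834 counts against 2732, 3416 and 2851, a log2 difference of -1.53 ± 0.04 (SE, adjusted p = 2.16e-11, same test). Hhip, an inhibitor that binds Hedgehog ligands, had 39, 42 and 44 counts against 0 in all 3 KO-labelled libraries, at least 47.4-fold lower against a floor of 3 counts over the group. The whole-gene counts of Gli2 and Gli3 thus go against the labels while these targets of the pathway are lower in the group labelled KO, so groups are named by their labels, and log2 differences are log2 fold changes of labelled KO over labelled WT.

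Marker genes also differed between the groups, called at an adjusted p below 0.05 together with 1.5-fold or more. At these limits 11.6% of all 14289 genes tested were higher and 6.1% lower. Of 10 fibroblast markers 7 were tested and 4 were lower (Col3a1, Dcn, Pdgfra and Pdgfrb), with a summed level of 44822 to 47236 CPM in the WT-labelled libraries and 36783 to 38533 CPM in the KO-labelled ones. Thy1, a surface marker of fibroblasts, had 4, 1 and 0 counts against 19, 15 and 9. All 4 mesothelial markers with a row (Msln, Lrrn4, Upk3b and Wt1, of 5) were higher, with a summed 21.5 to 24.4 CPM against 267.0 to 267.4 CPM. Of 7 epithelial markers 3 were tested, of which Krt7 and Cdh1 were higher, and the summed level was 12.8 to 13.8 CPM against 29.5 to 30.4 CPM. Most of the difference in that sum came from Krt7 (4.38 ± 0.472 CPM against 23.1 ± 0.257 CPM), while Sox9 was lower without reaching the fold limit (8.51 ± 0.104 CPM against 6.03 ± 0.446 CPM, log2 difference -0.50, adjusted p = 1.73e-04, same test). The acinar marker Cela1, the only one of 5 with a row, rose, lying between 7.36 and 8.84 CPM in the WT-labelled libraries and between 13.6 and 15.4 CPM in the KO-labelled ones. Among immune markers (2 of 5 with a row, summed 2.11 to 2.29 CPM against 2.37 to 2.90 CPM), neural crest and Schwann cell markers (3 of 5, 3.61 to 5.20 CPM against 3.61 to 4.68 CPM) and pericyte and smooth muscle markers (Acta2 alone of 5) no gene passed the test, and the 5 endothelial markers were not analysed here. In such bulk libraries fewer cells of a type and less RNA per cell cannot be told apart, and the part of these marker differences in the results below was not tested.

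Of the 49 genes, 12 passed both limits, an adjusted p below 0.05 together with a difference of 1.5-fold or more. Of these, 8 rose in the KO-labelled libraries (Hoxb9, Hoxd4, Hoxd8, Irx1, Irx2, Tbx2, Tbx3 and Foxc2) and 4 fell, Hoxc4, Hoxa9 and Foxd2 among them. That is 24.5% of the genes, beside 17.7% of all 14289 genes tested (11.6% higher and 6.1% lower). At the adjusted p alone 39 passed, 26 higher and 13 lower, which is 79.6% beside 58.7% of all genes tested (29.9% higher and 28.8% lower). The libraries of the groups did not overlap for 40 of the 49, where 64.2% of all tested genes did not overlap. The median log2 difference was 0.20 over the 49 genes and 0.00 over all genes tested. Wells of a group were close to each other, with a common biological coefficient of variation of 3.74%, at which small differences pass the test.

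**Figure D1:**
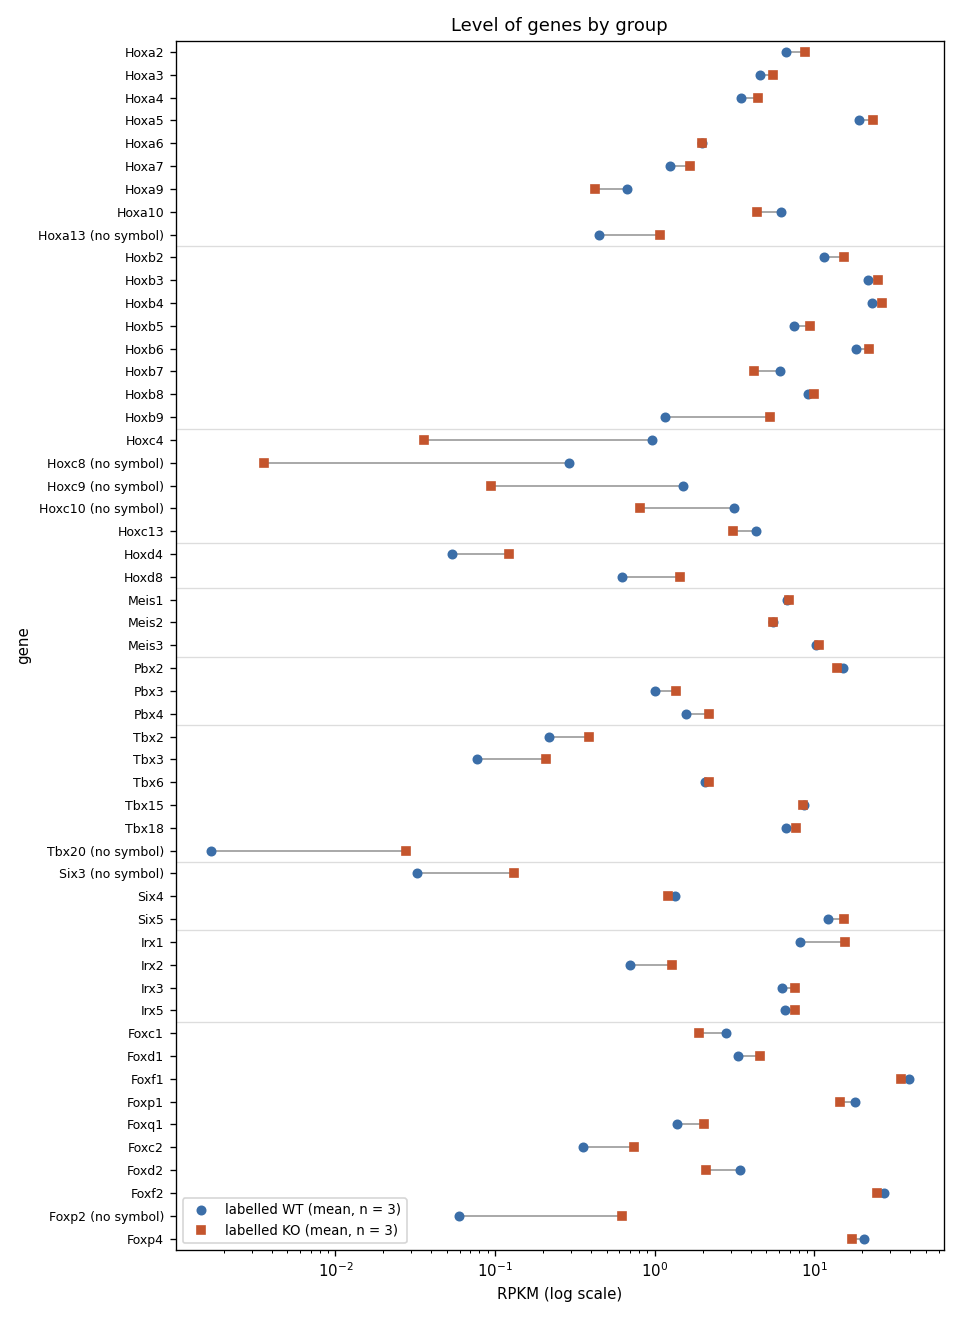
Mean level of the genes named here in the 3 WT-labelled libraries (circles) and the 3 labelled KO (squares), in CPM per kilobase of annotated exon (RPKM) on a log axis, grouped by family, with genes lacking a symbol in the table marked. Of the genes plotted, Foxf1 and Foxf2 have the highest levels in the WT-labelled libraries, at 39.1 and 27.4 RPKM, and the widest gaps between the groups are those of Hoxc8 and Hoxc4.

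By level per length (RPKM, which allows comparison between genes), abundant mRNAs among these in the WT-labelled libraries were those of Foxf1 (39.1 ± 1.22 RPKM, SD, n = 3) and Foxf2 (27.4 ± 1.35 RPKM), and of Hoxb4 and Hoxb3 at 23.1 and 21.6 RPKM. Most genes that passed both limits lay far below these. Among those named here, Irx1 had the highest level, 8.19 RPKM in the WT-labelled libraries, while the other 10 were at or under 3.43 RPKM. The more abundant Hox, Meis, Six5, Tbx and Foxf genes thus differed by less than 1.5-fold.

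Of the 21 Hox genes 5 passed both limits (23.8%, beside 17.7% of all genes tested), 3 higher and 2 lower. At the adjusted p alone 18 passed (85.7%, beside 58.7% of all genes tested), 13 higher and 5 lower. The median log2 difference of the 21 was 0.27. Without the KO library numbered 2 the count past both limits was 3, since Hoxa9 and Hoxd4 no longer passed. With the 4 Hox genes that lack a symbol counted too, 9 of 25 passed both limits, 4 higher and 5 lower.

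**Figure D2:**
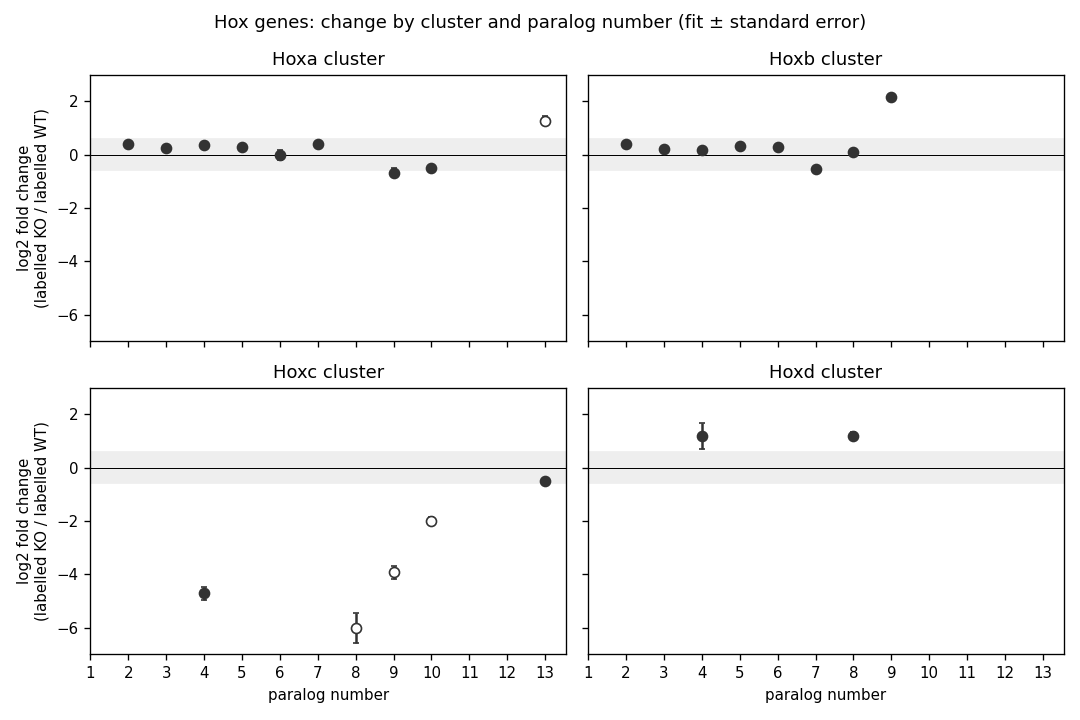
Log2 fold change (labelled KO over labelled WT) of tested Hox genes against its paralog number, 1 panel per cluster, with standard errors, the 1.5-fold band shaded, and open circles for genes without a symbol in the table. Most low-numbered Hoxa and Hoxb genes sit just above 0, Hoxb9 stands at 2.18, and the Hoxc genes run from -6.01 (Hoxc8, fitted from 1 count in the KO-labelled libraries) to -0.48 (Hoxc13).

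Start regions of some of the Hox genes that passed are shown because these genes moved in opposite directions and GLI proteins bind a known motif. Each sequence runs from 250 bases before to 50 bases after a RefSeq start (GRCm38.p6), 5′ to 3′ on the gene's strand. Capitals mark the GLI core CCACCCA and the CCAAT box on either strand. They are given for Hoxc4 (chr15:103034145-103034444, plus strand, a start inside the annotated gene), Hoxa9 (chr6:52227321-52227620, minus strand, also inside) and Hoxd8 (chr2:74704365-74704664, plus strand).
Hoxc4: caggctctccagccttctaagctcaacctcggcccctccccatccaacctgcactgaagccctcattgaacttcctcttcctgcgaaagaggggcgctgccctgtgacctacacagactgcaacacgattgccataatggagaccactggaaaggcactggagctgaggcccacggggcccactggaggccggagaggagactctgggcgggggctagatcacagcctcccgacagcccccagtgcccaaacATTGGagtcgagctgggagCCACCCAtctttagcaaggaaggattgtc
Hoxa9: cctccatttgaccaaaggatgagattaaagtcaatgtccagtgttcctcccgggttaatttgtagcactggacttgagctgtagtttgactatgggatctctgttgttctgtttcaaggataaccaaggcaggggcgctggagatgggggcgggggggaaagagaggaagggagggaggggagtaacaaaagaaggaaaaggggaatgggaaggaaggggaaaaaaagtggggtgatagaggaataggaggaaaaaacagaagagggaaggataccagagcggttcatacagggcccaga
Hoxd8: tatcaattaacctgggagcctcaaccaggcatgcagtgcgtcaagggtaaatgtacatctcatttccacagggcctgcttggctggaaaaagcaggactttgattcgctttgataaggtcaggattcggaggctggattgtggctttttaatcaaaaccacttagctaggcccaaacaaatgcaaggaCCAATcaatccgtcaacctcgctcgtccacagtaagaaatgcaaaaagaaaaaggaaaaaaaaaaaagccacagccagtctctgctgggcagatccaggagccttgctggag

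The Hoxc4 window holds 1 GLI core and 1 CCAAT box and 9 CpG dinucleotides at 60.3% GC. The Hoxa9 window holds neither motif, with 4 CpG at 49.7% GC, and the Hoxd8 window holds 1 CCAAT box, with 6 CpG at 46.7% GC. Not shown are the windows of Hoxd4, with 2 CCAAT boxes and no GLI core, and of Hoxa13, with 1 of each motif. Hoxd4 and Hoxa13 were both higher in the KO-labelled libraries. Hoxb9, Hoxc8, Hoxc9 and Hoxc10 have no promoter in the set used here. A link between motif and direction was not tested. Over the 32851 RefSeq promoters of this length, 9.3% hold the GLI core and 37.4% a CCAAT box on either strand. Of 36 promoters of 32 genes of these families, those lacking a symbol included, 5 hold the GLI core (Hoxa5, Hoxa7, Hoxa13, Hoxc4 and Meis3) and 19 a CCAAT box. The longer GLI site GACCACCCA, which contains the core, is in 0.253% of all promoters and in 0 of the 36, and the Hox and Pbx composite site TGATTNAT is in 3.22% of all and in 2 of the 36 (Hoxa2 and Tbx6). The median promoter of the families had 15 CpG and 58.83% GC, beside 7 CpG and 52.67% GC over all promoters.

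The Hoxc cluster on chromosome 15 was lower throughout the genes with a row. Hoxc4 (chr15:103018934-103036852), the most 3′ Hoxc gene, had 76, 80 and 84 counts in the WT-labelled libraries and 3, 3 and 4 in the KO-labelled ones. That is 2.48 ± 0.131 CPM against 0.0926 ± 0.0255 CPM (SD, n = 3 each), so Hoxc4 was left near the level of 3 counts in every KO-labelled library. Its log2 difference was -4.72 ± 0.25 (SE, adjusted p = 7.19e-09, edgeR quasi-likelihood test, Benjamini-Hochberg adjusted), and the summed counts of 240 and 10 give a ratio of 27.3 with a 95% counting interval of 14.6 to 57.7. Hoxc13 (chr15:102921103-102928814), at the other end of the cluster, had 344, 330 and 352 counts against 264, 333 and 241. Relative to library size the groups of Hoxc13 did not overlap (10.6 ± 0.664 CPM against 7.58 ± 0.362 CPM), and its log2 difference of -0.48 ± 0.08 (SE, adjusted p = 1.44e-04) was under the fold limit.

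Between these ends lie 3 Hoxc genes without a symbol in the table, all lower. Hoxc8 (chr15:102990607-102994111) had 30, 24 and 25 counts against 0, 0 and 1, a ratio of summed counts of 89.9 with a 95% counting interval of 15.7 to 3595. Hoxc9 (chr15:102976439-102985099) had 120, 112 and 121 counts against 10, 13 and 3, a log2 difference of -3.93 ± 0.24 (SE, adjusted p = 2.38e-08). Hoxc10 (chr15:102966796-102971893) had 183, 201 and 199 counts against 69, 47 and 51, a log2 difference of -1.98 ± 0.15 (SE, adjusted p = 2.01e-07). No KO-labelled library reached the lowest WT-labelled library for any of the 5 Hoxc genes in CPM, and Hoxc13 kept the largest share of its level. Among all tested genes the groups did not overlap for 64.2%. The other 4 annotated Hoxc genes were not analysed here, and exon overlaps with them were not sought. Summed over the 5 genes, the Hoxc level was 10.4, 9.71 and 10.6 RPKM in the WT-labelled libraries and 4.20, 3.99 and 3.87 RPKM in the KO-labelled ones.

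The nearest listed genes outside the Hoxc cluster differed little. Calcoco1, 198925 bases before it, had a log2 difference of -0.28 (adjusted p = 2.07e-06, same test), and Smug1, 116438 bases after it, one of -0.11 (adjusted p = 0.0858).

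The Hoxb cluster on chromosome 11 carried most of the Hox mRNA, 62.6% of the summed Hox RPKM in the WT-labelled libraries and 65.7% in the KO-labelled ones. Its summed level was 97.9, 96.6 and 100.7 RPKM against 117, 116 and 119.7 RPKM. Hoxb9 (chr11:96271457-96276595), the 1 Hoxb gene past both limits, had 111, 90 and 89 counts in the WT-labelled libraries and 509, 540 and 443 in the KO-labelled ones. At 3.01 ± 0.467 CPM against 13.6 ± 0.722 CPM it was 4.52-fold higher (log2 difference 2.18 ± 0.10 SE, adjusted p = 1.72e-09, edgeR quasi-likelihood test, Benjamini-Hochberg adjusted), the largest rise among the 49 genes. Hoxb7, which lies close by, had 280, 322 and 312 counts against 208, 269 and 231, a log2 difference of -0.55 ± 0.08 (SE, adjusted p = 1.01e-04), just under the fold limit.

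The remaining Hoxb genes were close to each other. Hoxb2, Hoxb3, Hoxb4, Hoxb5 and Hoxb6 passed at the adjusted p alone with log2 differences of 0.19 to 0.40, and Hoxb8 had 0.11 (adjusted p = 0.0626, 95% interval 0.01 to 0.21 before adjustment). At the adjusted p alone 29.9% of all genes tested were higher. Hoxb4 had the highest level of the cluster, 23.1 RPKM in the WT-labelled libraries and 26.4 RPKM in the KO-labelled ones. Its 1860, 1941 and 1932 counts in the former and 2491, 2783 and 2181 in the latter correspond to a log2 difference of 0.19 ± 0.04 (SE, adjusted p = 6.39e-04, same test). Hoxb6, of the paralog group known from pancreatic mesoderm, had 1107, 1173 and 1176 counts against 1463, 1792 and 1512, a log2 difference of 0.28 ± 0.05 (SE, adjusted p = 1.86e-04). Exons of Hoxb2, Hoxb3 and Hoxb5 overlap genes annotated on the opposite strand. Whether the counting used strand is not given in the sources used here, so reads of such partners cannot be told apart. The nearest listed genes outside the Hoxb cluster were also higher, both under the fold limit. Atp5g1, 118646 bases before it, had a log2 difference of 0.17 (adjusted p = 0.00981, same test). Skap1, 96337 bases after it and scarce (0.970 against 1.41 CPM), had one of 0.55 (adjusted p = 0.0200).

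The Hoxa cluster on chromosome 6 held 30.5% of the summed Hox RPKM in the WT-labelled libraries and 31.1% in the KO-labelled ones, counting Hoxa13. Hoxa2, Hoxa3, Hoxa4, Hoxa5 and Hoxa7 were higher at the adjusted p alone, with log2 differences of 0.27 to 0.41, and Hoxa9 and Hoxa10 were lower. At that limit 29.9% of all genes tested were higher and 28.8% lower. Hoxa9 (chr6:52223100-52231089) had 107, 128 and 127 counts in the WT-labelled libraries and 72, 81 and 103 in the KO-labelled ones. At 3.74 ± 0.291 CPM against 2.37 ± 0.655 CPM it was 1.60-fold lower (log2 difference -0.68 ± 0.17 SE, adjusted p = 0.00359, edgeR quasi-likelihood test, Benjamini-Hochberg adjusted). The KO-labelled library with 103 counts lay nearest the other group, and without the one with 81 counts the change was -0.55 (adjusted p = 0.0207), under the fold limit.

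Hoxa10, which lies next to Hoxa9, had 608, 688 and 654 counts against 483, 640 and 462, a log2 difference of -0.49 ± 0.06 (SE, adjusted p = 1.62e-05). Hoxa5, the most abundant Hoxa gene (19.0 against 23.3 RPKM), had 1135, 1200 and 1107 counts against 1616, 1750 and 1440, a log2 difference of 0.30 ± 0.04 (SE, adjusted p = 6.26e-05). Hoxa6 did not pass, with a log2 difference of -0.02 (95% interval -0.42 to 0.38). At the 5′ end of the cluster Hoxa13 (chr6:52257694-52260880), which has no symbol in the table, went the other way from Hoxa9 and Hoxa10, with 43, 33 and 31 counts against 87, 114 and 94 and a log2 difference of 1.27 ± 0.17 (SE, adjusted p = 2.75e-05). Exons of Hoxa3, Hoxa4 and Hoxa7 overlap opposite-strand genes.

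Beside the Hoxa cluster, the noncoding gene Halr1, 41906 bases before it, had 110, 118 and 90 counts in the WT-labelled libraries and 9, 9 and 7 in the KO-labelled ones, a log2 difference of -3.83 ± 0.21 (SE, adjusted p = 9.95e-09). Hibadh, the nearest listed gene on the other side, had a log2 difference of -0.00 (adjusted p = 0.963).

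Of the Hoxd cluster on chromosome 2 only Hoxd4 and Hoxd8 of 9 annotated genes have a row, and both passed. At both limits 11.6% of all genes tested were higher. Hoxd8 (chr2:74704615-74707933) had 47, 60 and 59 counts in the WT-labelled libraries and 142, 156 and 138 in the KO-labelled ones. Its 1.71 ± 0.187 CPM against 3.98 ± 0.220 CPM is a 2.31-fold difference (log2 difference 1.21 ± 0.13 SE, adjusted p = 4.14e-06, edgeR quasi-likelihood test, Benjamini-Hochberg adjusted). Hoxd4 had 9, 1 and 5 counts against 11, 18 and 11, a log2 difference of 1.21 ± 0.49 (SE, adjusted p = 0.0498). Hoxd4 is close to the floor, its exons overlap the opposite-strand gene Hoxd3os1, and it did not pass with DESeq2 (adjusted p = 0.124), with limma on the deposited values (adjusted p = 0.143) or when any 1 of 5 of the libraries was left out. Exon overlaps with Hoxd genes lacking a row were not sought. The flanking genes Lnpk and Mtx2 had log2 differences of -0.08 and -0.02 and did not pass.

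**Figure D3:**
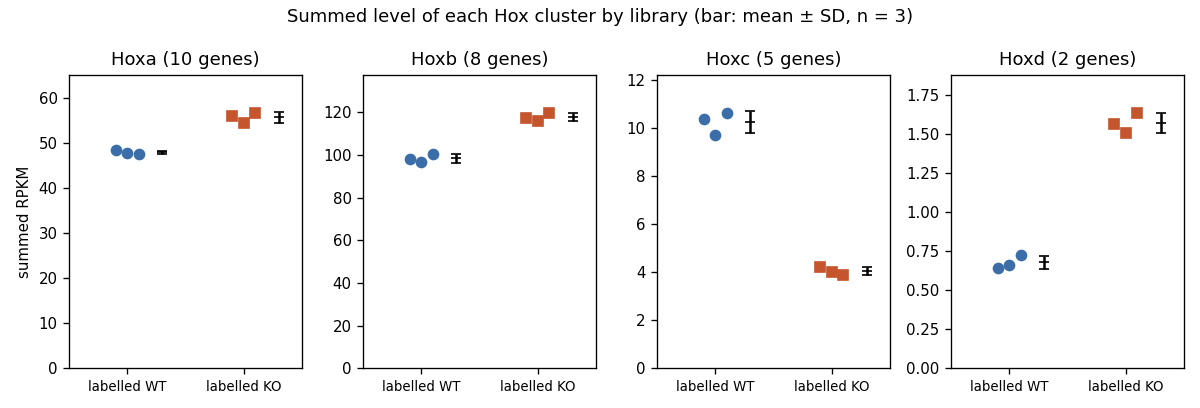
Summed RPKM of the listed Hox genes of each cluster in each library (points) with mean and SD (n = 3), on separate axes that start at 0, with genes lacking a symbol included. Hoxa, Hoxb and Hoxd sums are higher and the Hoxc sum lower in all 3 KO-labelled libraries, and the Hoxc share of the total goes from 6.50% to 2.25%.

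Of the 28 genes outside the Hox clusters, 7 passed both limits (25.0%, beside 17.7% of all genes tested), 5 higher and 2 lower. At the adjusted p alone 21 passed (75.0%, beside 58.7% of all genes tested), 13 higher and 8 lower. The median log2 difference of the 28 was 0.07.

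Of the Hox cofactors of the Pbx group, Pbx2, Pbx3 and Pbx4 passed at the adjusted p alone and stayed under the fold limit. At the adjusted p alone 58.7% of all genes tested passed. Pbx2 had 1689, 1801 and 1801 counts in the WT-labelled libraries and 1782, 2122 and 1658 in the KO-labelled ones, a log2 difference of -0.12 (adjusted p = 0.0146, edgeR quasi-likelihood test, Benjamini-Hochberg adjusted). It did not pass with upper-quartile or total-count scaling, with DESeq2 or without WT library 3 (adjusted p of 0.0508 to 0.185). Pbx3 and Pbx4, which were less abundant per length, had log2 differences of 0.43 and 0.48.

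Meis1, Meis2 and Meis3 did not pass in either direction in the main test. Their log2 differences were 0.05 (95% interval -0.04 to 0.14), -0.00 (95% interval -0.09 to 0.08) and 0.06 (95% interval -0.03 to 0.15), so that a change of 1.5-fold lies outside each interval. Meis3 had the highest level per length of the 3, 10.2 and 10.6 RPKM, with 979, 1097 and 1052 counts against 1194, 1411 and 1111. Of the 5 other genes of the same TALE homeobox class that were tested (Pknox1, Pknox2, Tgif1, Tgif2 and Mkx), Tgif2 was higher (log2 difference 0.87, adjusted p = 2.67e-05) and Pknox2 lower (-1.56, adjusted p = 1.49e-04).

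Among the T-box genes the 2 scarce repressors Tbx2 and Tbx3 rose, while the more abundant ones differed little. Tbx3 (chr5:119670669-119684724) had 21, 14 and 14 counts in the WT-labelled libraries and 47, 62 and 45 in the KO-labelled ones, 2.75-fold higher (log2 difference 1.46 ± 0.22 SE, adjusted p = 9.77e-05). Tbx2, its close relative, had 17, 26 and 34 counts against 53, 67 and 37, a log2 difference of 0.83 ± 0.24 (SE, adjusted p = 0.00969), and its groups came near to touching at 1.07 and 1.12 CPM. Tbx15, a limb and skin mesenchyme factor and the most abundant of the 5 per length, had 1052, 1091 and 995 counts against 1061, 1372 and 1079, a log2 difference of -0.03 (95% interval -0.13 to 0.08). Tbx18, a factor of epicardium and mural cells, had a log2 difference of 0.20 (adjusted p = 0.00261), and its exons overlap an opposite-strand gene. Tbx6, a factor of paraxial mesoderm, did not pass (0.08, 95% interval -0.23 to 0.38). Tbx20, which has no symbol in the table and too few counts for the test, had 0, 2 and 0 counts against 9, 12 and 15, a ratio of summed counts of 15.8 with a 95% counting interval of 4.07 to 135.6.

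Six4 and Six5, of a family known from muscle, kidney and sensory organ development, did not reach the fold limit. Six5, at 12.1 against 15.4 RPKM, had 1140, 1236 and 1145 counts in the WT-labelled libraries and 1602, 1894 and 1603 in the KO-labelled ones, a log2 difference of 0.35 ± 0.04 (SE, adjusted p = 1.08e-05). Six4 had a log2 difference of -0.15 (95% interval -0.31 to 0.00) and did not pass. Six3, without a symbol in the table, had 6, 5 and 6 counts against 25, 25 and 28, a log2 difference of 1.99 ± 0.31 (SE, adjusted p = 1.24e-04). Of 6 genes for partners of these proteins 4 were tested, and 1 passed both limits (25.0%, beside 17.7% of all genes tested). This was Eya2, a coactivator, which fell from 558, 632 and 564 counts to 62, 70 and 62 (log2 difference -3.36, adjusted p = 6.11e-12, edgeR quasi-likelihood test, Benjamini-Hochberg adjusted).

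The 4 Irx genes all had higher levels in the KO-labelled libraries at the adjusted p alone, with a median log2 difference of 0.58. Of all genes tested 29.9% were higher at that limit. Irx1 and Irx2, 665.1 kb apart on chromosome 13, passed both limits. Irx1 (chr13:71957921-71963723) had 729, 708 and 637 counts in the WT-labelled libraries and 1529, 1686 and 1304 in the KO-labelled ones, or 21.5 ± 1.68 CPM against 41.0 ± 1.91 CPM. It was 1.91-fold higher (log2 difference 0.94 ± 0.06 SE, adjusted p = 2.54e-08, edgeR quasi-likelihood test, Benjamini-Hochberg adjusted), the most abundant Irx gene in both groups, and its groups were far apart. Irx2 had 71, 75 and 75 counts against 138, 176 and 151, a log2 difference of 0.89 ± 0.12 (SE, adjusted p = 2.70e-05). Irx3 and Irx5, 555.6 kb apart on chromosome 8, had log2 differences of 0.27 (adjusted p = 0.0011) and 0.20 (adjusted p = 0.00407). The difference between the pairs was not tested.

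**Figure D4:**
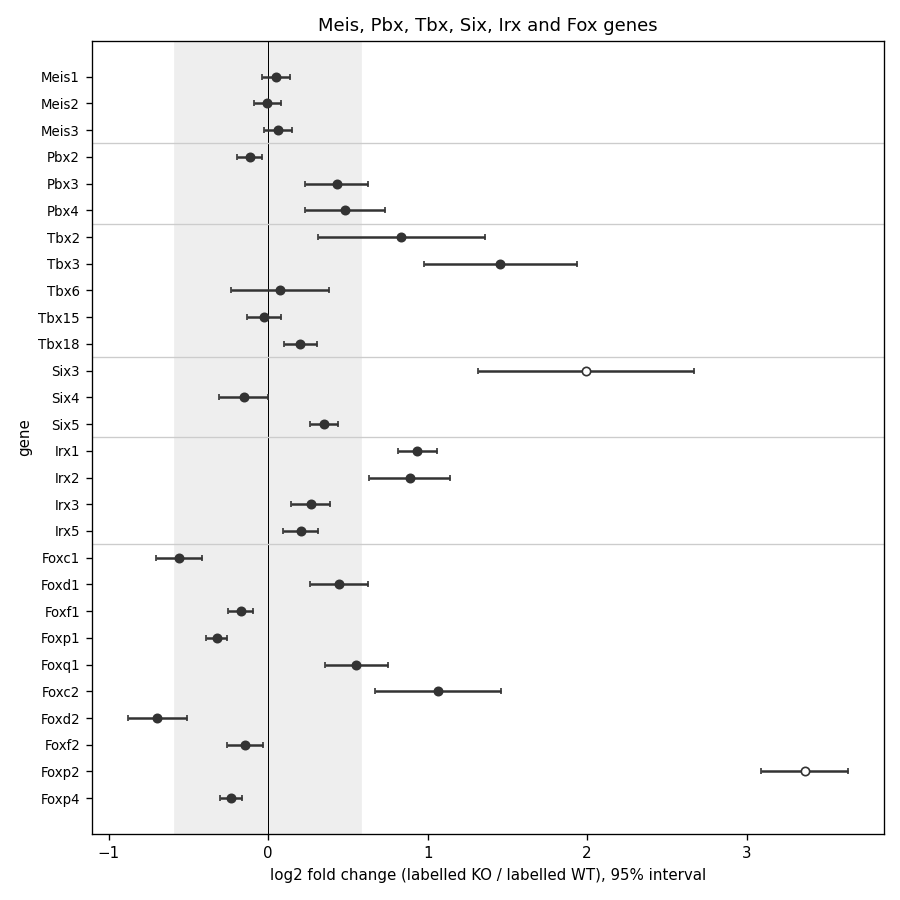
Log2 fold change (labelled KO over labelled WT) of tested genes outside the Hox clusters with 95% intervals before adjustment, grouped by family, with the 1.5-fold band shaded and open circles for genes without a symbol in the table. Meis genes lie at 0, and the estimates for Tbx2, Tbx3, Irx1, Irx2 and Foxc2, and for Six3 and Foxp2 without a symbol, lie to the right of the band.

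All 9 forkhead genes passed at the adjusted p alone, 3 higher and 6 lower, with a median log2 difference of -0.17. Of all genes tested 58.7% passed that limit, 29.9% higher and 28.8% lower. Foxc2 (chr8:121116171-121118895), a factor of vascular and lymphatic development, rose from 36, 26 and 32 counts to 66, 95 and 64. That is 0.976 ± 0.188 CPM against 2.03 ± 0.222 CPM, 2.09-fold (log2 difference 1.07 ± 0.18 SE, adjusted p = 2.65e-04). Foxd2 (chr4:114906282-114908873), expressed in kidney mesenchyme, fell from 292, 298 and 270 counts to 204, 236 and 165, 1.62-fold (log2 difference -0.70 ± 0.09 SE, adjusted p = 1.53e-05). The paralogs of both went the other way: Foxc1 had 548, 532 and 497 counts against 385, 449 and 385 (log2 difference -0.56, adjusted p = 1.22e-05), and Foxd1 had 581, 537 and 521 against 929, 891 and 716 (0.44 on the log2 scale, adjusted p = 5.04e-04). Both stayed under the fold limit.

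The gut mesenchyme factors Foxf1 and Foxf2, the former the most abundant of the 49 genes, were a little lower. Foxf1 (chr8:121084386-121088144) had 3038, 3193 and 2912 counts in the WT-labelled libraries and 3064, 3416 and 2740 in the KO-labelled ones. Relative to library size this is 94.5 ± 2.95 CPM against 83.8 ± 2.39 CPM, a log2 difference of -0.17 ± 0.04 (SE, adjusted p = 0.0011), with no overlap. Foxf2 had a log2 difference of -0.15 ± 0.05 (SE, adjusted p = 0.0279), its groups overlapped, and it did not pass with upper-quartile or total-count scaling, with limma on the deposited values or without WT library 1, KO library 2 or KO library 3 (adjusted p of 0.0628 to 0.166). Foxf1 and Foxc2 lie 28.0 kb apart on chromosome 8 and differed in opposite directions, as did Foxq1 (log2 difference 0.55, adjusted p = 1.86e-04) and Foxf2, 64.8 kb apart on chromosome 13. Foxf2 and Foxc1, 175.2 kb apart on the same chromosome, were both lower. Exons of Foxf1, Foxq1, Irx3 and Meis1 overlap opposite-strand genes, with the limit given for Hoxb2.

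The Foxp genes, broadly expressed repressors, were lower except for the 1 without a symbol. Foxp1, with 7818, 8164 and 7965 counts against 7237, 8147 and 6415, had a log2 difference of -0.32 ± 0.03 (SE, adjusted p = 1.55e-06), and Foxp4 a log2 difference of -0.23 (adjusted p = 3.92e-05). Foxp2 (chr6:14901349-15441977) had 24, 37 and 34 counts in the WT-labelled libraries and 340, 426 and 350 in the KO-labelled ones. It was 10.3-fold higher, from 0.979 ± 0.185 CPM to 10.1 ± 0.505 CPM (log2 difference 3.36 ± 0.12 SE, adjusted p = 2.10e-10, edgeR quasi-likelihood test, Benjamini-Hochberg adjusted). Of 26 other forkhead genes 14 were tested, and 4 passed both limits (28.6%, beside 17.7% of all genes tested). Foxo6 (3.67) and Foxm1 (1.14) were higher and Foxa2 (-0.72) and Foxo4 (-0.73) lower on the log2 scale.

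**Figure D5:**
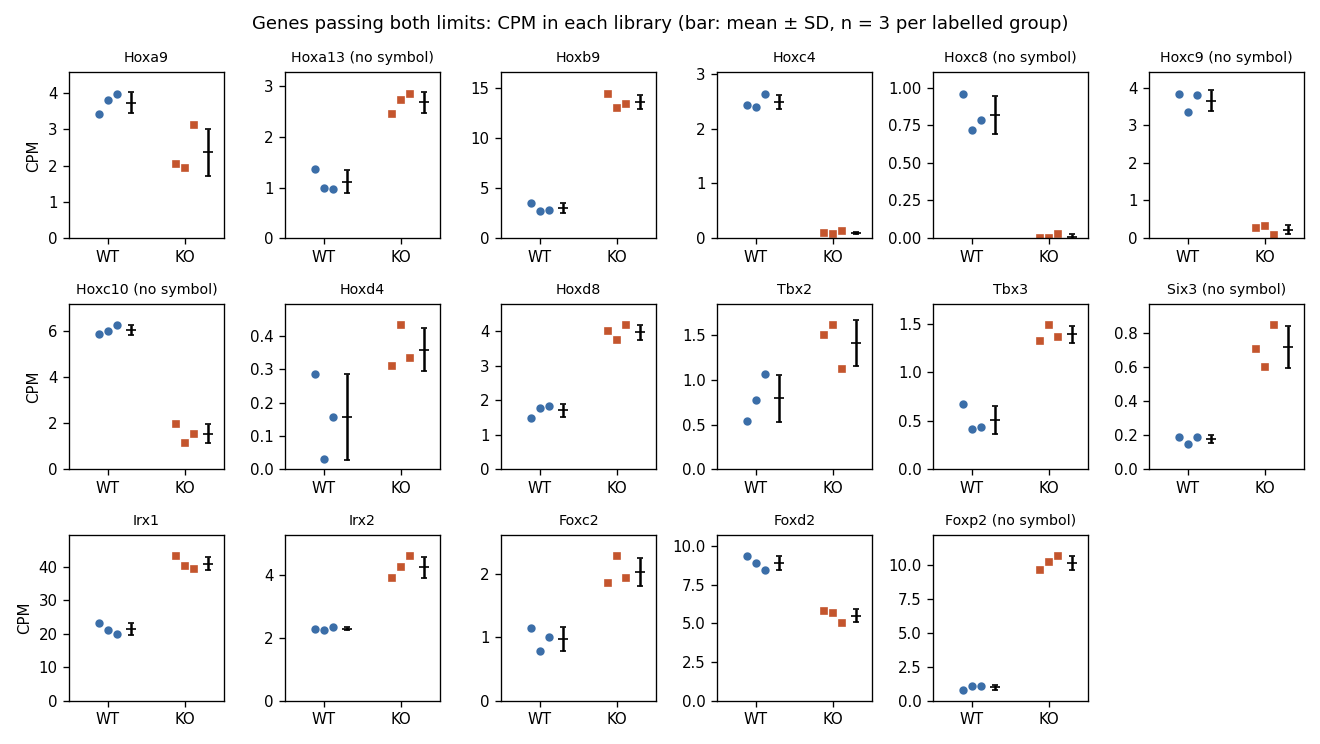
CPM in each library (points) with mean and SD (n = 3 per labelled group) for 11 of the 12 genes that passed both limits and the 6 without a symbol in the table that did, on separate axes that start at 0. Groups are apart in every panel, narrowly for Tbx2, Hoxd4 and Hoxa9, and Hoxc4, Hoxc8 and Hoxc9 drop to near 0.

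Lists of genes that act with or beside these factors gave the following. Of 31 Polycomb and Trithorax genes, whose products hold Hox genes silent or active, all were tested and 1 passed both limits (3.23%, beside 17.7% of all genes): Phf19, a Polycomb accessory factor, rose from 21, 29 and 18 counts to 166, 175 and 144 (log2 difference 2.64, adjusted p = 2.21e-08). The list's median log2 difference was -0.02, and 20 passed at the adjusted p alone (64.5%, beside 58.7% of all genes), 9 higher and 11 lower. Of 12 noncoding and flanking genes of the Hox clusters 7 were tested, and 2 passed both limits (28.6%, beside 17.7% of all genes). Hoxd3os1 was higher (0.96, adjusted p = 0.0136) and Halr1 lower.

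Further homeobox and zinc finger genes are known from the mesenchyme of the pancreas and spleen. Of 16 genes of pancreatic and splenic mesenchyme 13 were tested, and 6 passed both limits (46.2%, beside 17.7% of all genes tested). Of these 4 were higher and 2 lower, and the median log2 difference over the 13 was 0.27. Isl1, a LIM homeobox gene of dorsal pancreatic mesenchyme, rose from 3, 2 and 4 counts to 100, 126 and 87 (log2 difference 4.88 ± 0.26 SE, adjusted p = 6.25e-09). Nkx2-5, a homeobox gene of heart and splenic mesenchyme, had 0 counts in every WT-labelled library and 17, 24 and 24 in the others. Against a floor of 3 counts over the group it was at least 19.0-fold higher in the latter. Wt1, also a mesothelial marker, was higher (1.83 on the log2 scale), and Osr1 (-1.16) and Nkx3-2 (-0.60) were lower. Of 12 Hedgehog pathway genes 8 were tested, and 5 passed both limits (62.5%, beside 17.7% of all genes tested). Gas1 was higher (1.89) and Smo (-0.75) lower, as were Gli1, Ptch1 and Hhip.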

How the data were processed

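RNA of 6 wells was sequenced from polyadenylated RNA libraries. The authors deposited raw counts of reads per gene, without normalization, and a second table of log2 CPM made by limma voom. The submitters' processing notes name STAR 2.7.2b, featureCounts, limma and GRCm38.p6. The strand setting is not given in the sources used here. Groups came from the genotype labels, and replicate numbers only name libraries.

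Counts were tested in R 4.3.3 with edgeR 4.0.16 (TMM, filterByExpr, quasi-likelihood F test, 3 against 3 libraries, Benjamini-Hochberg over 14289 genes), after a test on simulated data. A gene passed both limits at an adjusted p under 0.05 and at least 1.5-fold. The study's methods name no test for these counts. CPM were computed from each library's total over the tested genes scaled by its TMM factor, and RPKM also from merged GENCODE M21 exons. Identifiers of 14822 of 14831 genes matched that annotation. Exon overlaps were sought only among genes with a row. Chi-square per degree of freedom between libraries of a group was 2.50 to 7.74, so all 6 were kept.

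Per-library values are given for genes that passed and for the most abundant gene of each family, other members by values or ranges, and from each context list up to 3 genes per direction. Of the 49 members, 3 are counted but not reported here by name or value. Members and lists were chosen with earlier results of these data known. Genes without a symbol were added after seeing the data. Foxp1, Hoxb7, Hoxa10, Foxc1, Foxd1, Thy1 and other genes given with counts outside this rule were chosen after their values were seen. Alternatives covered scaling (RLE, upper quartile, total counts), 2 other filters on low counts, the fold limit, DESeq2 1.42.0, limma 3.58.1 on counts and on the deposited log2 values, and leaving out each library.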

Additional observations from a re-analysis of the deposited data

How the results depend on the processing

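Without a fold limit 39 of the 49 genes passed (18 Hox, 21 others), and with at least 2-fold 6 did (2 of those outside the Hox clusters). Without that limit 58.7% of all genes tested passed, and their share at 2-fold is not given here. Leaving out 1 library gave 10 to 14 genes, 3 to 6 of them Hox and 7 to 9 others. Over all genes tested 2501 to 2618 passed in these runs, beside 2531 with every library. The Hox count fell from 5 to 3 without the KO library numbered 2, and also to 3 where every library had to hold at least 10 counts, which left 19 Hox genes to test. At that filter 1926 of all 13155 genes tested passed. Counting genes without a symbol, chosen after seeing the data, gave 9 Hox genes of 25. The other scalings and tests left these counts within 1.5 times.

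Signs turned for 4 genes, none of which passed both limits under any alternative. Hoxa6 had log2 differences of 0.0399 with upper-quartile scaling and 0.0178 with total counts, Meis2 had 0.0530 and 0.0308 (and 0.00337 with at least 10 counts), and Tbx15 had 0.0316 and 0.00949. With 1 library left out, the values ran from -0.172 to 0.0901 for Hoxa6, from -0.0394 to 0.0249 for Meis2, from -0.0951 to 0.169 for Tbx6 and from -0.0555 to 0.0121 for Tbx15.

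Hoxd4 had adjusted p of 0.0539 to 0.188 under 8 alternatives, and without WT library 2, where it had 1 count, its log2 difference was 0.70. Foxc1, Foxq1, Hoxb7 and Pbx4 crossed the fold limit in some settings. Hoxb8, Meis1, Meis3 and Six4 did not pass in the main test. In some alternatives they fell under an adjusted p of 0.05, always at less than 1.5-fold. Gli2 stayed at 1.02 to 1.11 and Gli3 at 1.68 to 1.77. No paired analysis was possible because the labels carry no replicate numbers that the groups share. Depth limits genes near 3 counts, here Hoxc4, Hoxc8, Hoxd4 and Tbx20.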
